A study of Mus musculus with 3 samples.

Results

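The Tac1/Aox3-positive cells at postnatal day 25 (P25) were 286 of the 4768 cells of the P25 library that passed quality filters and held no leukocyte, endothelial or epithelial gate transcript, or 6.00% (95% interval 5.34 to 6.71), and 286 of the 15912 barcodes in all 3 libraries of the study. They were chosen as barcodes holding at least 3 UMIs (unique molecular identifiers, each counting 1 captured transcript) of Tac1 and Aox3 together, among barcodes with 500 or more genes and no more than 15% of UMIs from mitochondrial genes. The gate transcripts, of which they held no UMI, were the leukocyte gene Ptprc, the endothelial gene Pecam1 and the epithelial gene Epcam. The other 4482 P25 cells without those 3 transcripts served as their comparison. The study read single-cell 3' RNA from mouse lower molars, whose pulp and periodontium were dissociated with enzymes and sorted for green fluorescence, tdTomato fluorescence or both. The P25 library came from Col1a1-GFP; Cxcl12-creER; R26R(tdTomato/+) mice, in which GFP reports the Col1a1 promoter and tdTomato marks cells recombined by a tamoxifen-dependent Cre at Cxcl12, together with their descendants. The libraries set beside it were Cxcl12-GFP P6, from Cxcl12-GFP/+ mice, and Cxcl12-creER P6, from Cxcl12-creER; R26R(tdTomato/+) mice. The labels used here give neither the time of tamoxifen nor the number of animals, and the fluorescence gate decided which cells each library could hold.

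There was 1 library per group, so no test of a condition was possible and no p-value is given. Levels are UMIs summed over the cells of a group, divided by all UMIs of that group and given in counts per 1000000 (CPM). Intervals are 95% exact Poisson intervals for levels, exact conditional binomial intervals for ratios and Clopper-Pearson intervals for shares, and all cover counting error only. Because the positive cells were chosen by their own RNA, every contrast with the other P25 cells is a description. The P25 library held 6693 barcodes and 99277096 UMIs, and 5657 barcodes passed the filters. The positive cells had a median of 17348.5 UMIs and 4148.5 genes, and the other cells 14666 UMIs and 3678 genes. The median mitochondrial share was 5.25% in the positive cells and 4.83% in the other cells. A deeper cell more easily reaches 3 UMIs, and the single positive cells ranged from 3147 to 64028 UMIs.

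The apical papilla is the soft tissue at the growing root end of a tooth, and its mesenchymal cells are known as a source of root odontoblasts and pulp cells while the root elongates. Odontoblasts deposit dentin and express genes such as Dspp and Dmp1. Canonical Wnt signalling acts through beta-catenin and the TCF/LEF factors, raises transcripts of feedback genes such as Axin2, Nkd1 and Lef1, and is required in dental mesenchyme for root formation. CXCL12 is a chemokine made by stromal cells, best known from the reticular cells of bone marrow.

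Aox3, which encodes an aldehyde oxidase, chose most of the cells at P25. Of the 286 cells, 207 held Aox3 without Tac1, 66 held both and 13 held Tac1 without Aox3. Tac1, the precursor gene of the neuropeptide substance P, was thus found in 79 of them and Aox3 in 273. The summed count of both genes had a median of 5 UMIs and a maximum of 42 UMIs, and 81 cells stood at exactly 3 UMIs. Just outside the threshold were 121 other cells with 2 UMIs and 293 with 1 UMI. Aox3 stood at 256 CPM in the positive cells and 6.84 CPM in the other cells. Tac1 stood at 123 CPM in the positive cells and 0.450 CPM in the other cells. The rule itself fixes these values. Among the 889 cells with a leukocyte, endothelial or epithelial transcript, 8 reached 3 UMIs of the pair, which was 0.900% (0.389 to 1.77) against 6.00% among the cells without such a transcript. At P6 the balance of both genes differed. In Cxcl12-GFP P6 the same rule took 254 of 7049 cells (3.60%, 3.18 to 4.07), of which 152 held Tac1 without Aox3 and 1 held Aox3 without Tac1. In Cxcl12-creER P6 it took 34 of 1085 cells (3.13%, 2.18 to 4.35), of which 8 held Tac1 alone, 10 Aox3 alone and 16 both.

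The positive cells did not form 1 cluster. Clustered without Tac1, Aox3, Col26a1, Cxcl12 or the reporters among the variable genes, the P25 library gave 25 clusters, and positive cells lay in 12 of them. Cluster 17 held 80 of the positive cells among its 112 cells (71.4%, 62.1 to 79.6) and was led by Tac1, Coch, Aox3, Pcp4 and Col26a1. By its markers cluster 17 was called apical papilla-like, with all 3 apical papilla markers above the median of the other clusters. Cluster 11 held 75 among 177 cells (42.4%, 35.0 to 50.01) and was odontoblast-like, led by Dspp, Coch, Slpi, Dmp1 and Crtac1. Cluster 9 held 60 among 209 cells (28.7%, 22.7 to 35.4) and was led by Ambn, Cntn6, Egfem1, Col9a3 and Tac1. It also had all 3 apical papilla markers above that median, and their list scored highest in it, with a mean log2 ratio of 3.97 against 6.32 in cluster 17. It took no name because its 10 leading genes held as many epithelial markers (Ambn) as apical papilla markers (Tac1). Tac1 and Aox3 are the genes of the rule, so these marker tallies lend the name no independent support. These 3 clusters held 215 of the 286 cells, or 75.2% (69.7 to 80.1). Of the remainder, 22 lay in cluster 1, an unnamed cluster led by Pmch, Gpha2 and H19, 12 in cluster 7, 10 in the cycling cluster 16 and 8 in the ligament-like cluster 13. Tac1 itself was found in 22 of the 80 positive cells of cluster 17 (27.5%), in 15 of the 75 of cluster 11 (20%) and in 22 of the 60 of cluster 9 (36.7%), so no cluster of the 3 was made up of Tac1-bearing cells. They are therefore called Tac1/Aox3-positive cells here.

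**Figure D1:**
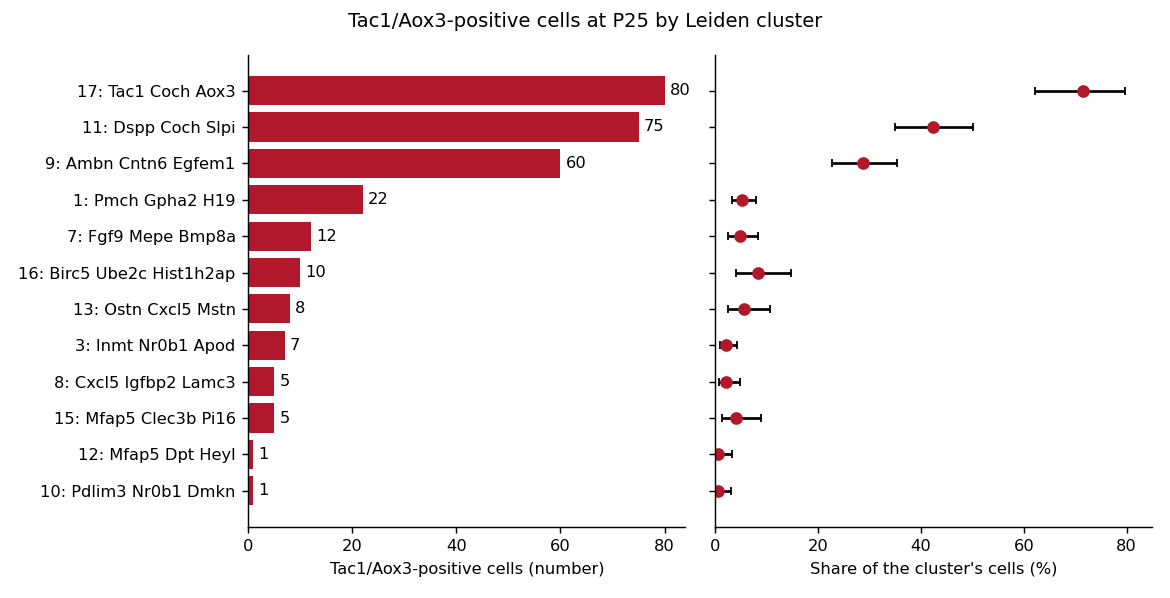
Number of Tac1/Aox3-positive cells in each P25 cluster that held any (left, bars) and their share of the cluster's cells in percent (right, points with 95% Clopper-Pearson intervals), with each cluster's number and 3 leading genes. Clusters 17, 11 and 9 held 80, 75 and 60 of the 286 cells, and only in cluster 17 were most cells positive.

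Col26a1, which encodes a collagen chain of the extracellular matrix and was the one marker of this cell type that the rule did not use, was 21.9-fold (19.5 to 24.7) higher in the positive cells. Its level was 135 CPM (126 to 145) in the positive cells and 6.16 CPM in the other cells. It was detected in 42.0% of positive cells, in 6.09% of the other cells and in 1.20% of the cells with Ptprc, whose share serves as the background of free RNA. Within the positive cells the level depended on the cluster: 343 CPM (312 to 376) in cluster 17, 44.3 CPM in cluster 11, 23.8 CPM in cluster 9 and 152 CPM in the other clusters. Col26a1 therefore marked mainly the positive cells of cluster 17, while in clusters 11 and 9 its level was nearer to that of the other cells. The level also differed with distance from the threshold. Positive cells with more than 3 UMIs of the pair stood at 169 CPM and those with exactly 3 at 40.6 CPM, whereas other cells with 2, 1 and 0 UMIs stood at 24.9, 17.7 and 4.70 CPM.

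Cxcl12, the gene whose promoter defines the study's mice, was lower in the positive cells. It stood at 73.2 CPM (66.2 to 80.8) in the positive cells and 338 CPM in the other cells, which made the other cells 4.62-fold (4.19 to 5.11) higher. It was detected in 37.8% of the positive cells and 58.5% of the other cells, against 17.7% of the cells with Ptprc. In the positive cells of cluster 11 it stood at 12.1 CPM, in those of cluster 17 at 36.5 CPM, in those of cluster 9 at 51.1 CPM and in those of the other clusters at 215 CPM. Cxcl12 was thus low in the positive cells of the 3 main clusters, but also in the cells there that were not positive. Those stood at 88.4 CPM in cluster 17, 5.52 CPM in cluster 11 and 73.8 CPM in cluster 9. In cluster 11 the positive cells were 2.19-fold (1.01 to 5.03) higher. Whole clusters ranged from 8.57 CPM in cluster 11 and 29.2 CPM in the ligament-like cluster 0 to 16786 CPM in the marrow stromal-like cluster 23. In Cxcl12-GFP P6, Cxcl12 was lower in the positive cells as well, at 131 CPM against 262 CPM in other cells. In Cxcl12-creER P6 it was at 90.2 CPM in positive and 238 CPM in other cells.

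The tdTomato transcript, by contrast, was found in more of the positive cells than of the other cells. At least 5 tdTomato UMIs were held by 192 of 286 positive cells (67.1%, 61.4 to 72.5), by 29.7% (28.4 to 31.1) of the other cells and by 17.6% of the 581 cells with Ptprc, whose median depth was 16610 UMIs. After each cell was thinned to 1000 UMIs, 49.7% of positive cells and 25.6% of other cells held a tdTomato UMI, with 22 other cells left out as too shallow. Without thinning, 81.1% of positive cells and 54.1% of other cells held at least 1. Part of this excess was shared by cells of the same clusters that were not positive. At least 5 tdTomato UMIs were held by 82.5% of the positive cells of cluster 17 and 53.1% of its cells that were not positive. The same shares were 60% and 50% in cluster 11, and 51.7% and 49.0% in cluster 9. GFP ran the other way: 111 positive cells (38.8%, 33.1 to 44.7) and 48.9% (47.5 to 50.4) of the other cells held at least 5 GFP UMIs, against 9.12% of the cells with Ptprc. Thinned, 29.4% of positive and 41.7% of other cells held a GFP UMI. The summed GFP levels were close, at 1409.7 CPM in the positive cells and 1500.3 CPM in the other cells. The sum over the positive cells rested largely on cluster 11, whose 75 positive cells held 6081 of the 7698 GFP UMIs.

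The reporters split the positive cells by cluster. In cluster 17, 77.5% (66.8 to 86.1) of the 80 positive cells held tdTomato alone at 5 UMIs or more, 5% held both reporters and 1.25% held GFP alone. In cluster 11, 34.7% held both, 30.7% GFP alone and 25.3% tdTomato alone, and in cluster 9, 33.3% held both, 31.7% GFP alone and 18.3% tdTomato alone. GFP stood at 97.2 CPM in the positive cells of cluster 17, 3499 CPM in those of cluster 11 and 845 CPM in those of cluster 9. tdTomato stood at 1109.5 CPM in the positive cells of cluster 17, 915 CPM in those of cluster 11 and 600.4 CPM in those of cluster 9. The cells with the highest Col26a1 level were therefore mostly tdTomato-bearing and GFP-poor. Over all 286, tdTomato alone was the most frequent class, at 47.9%, and GFP alone was the most frequent among the other cells, at 40.8%. The library was sorted on these fluorescent proteins, and the part of the sort in these shares was not tested.

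**Figure D2:**
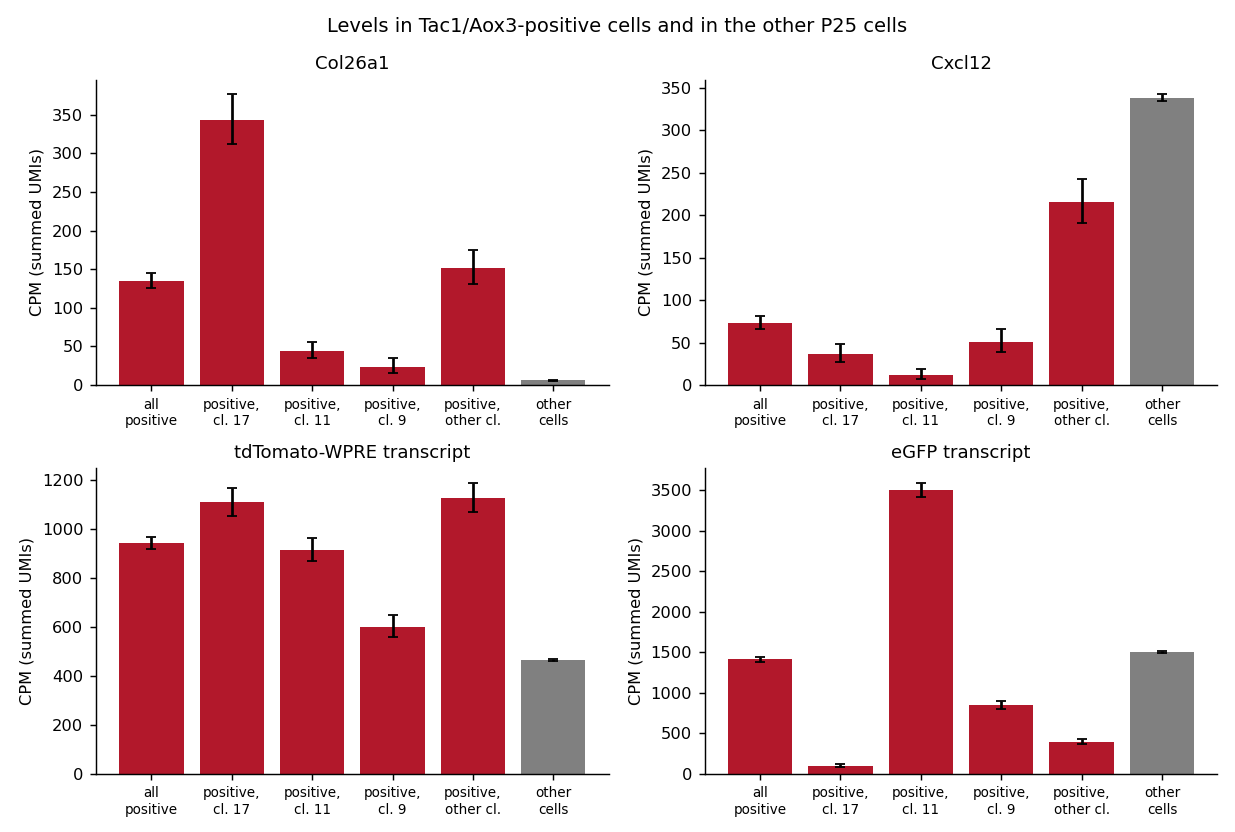
Summed level in CPM (bars, with 95% exact Poisson intervals) of Col26a1, Cxcl12, the tdTomato-WPRE transcript and the eGFP transcript in all positive cells, in those of clusters 17, 11, 9 and other clusters (red) and in the other P25 cells (grey). Col26a1 reached 343 CPM in cluster 17, where GFP was lowest at 97.2 CPM, and Cxcl12 was below the other cells' 338 CPM in each set of positive cells.

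Of 6227 genes with at least 20 CPM and 20 UMIs in either group, 228 (3.66%) were at least 2-fold higher in the positive cells and 309 (4.96%) at least 2-fold lower. Where the higher group reached 50 CPM and 50 UMIs, the highest ratio after Col26a1 was that of Crtac1, which encodes a secreted cartilage acidic protein, with 50.7 CPM in the positive cells and 3.46 CPM in the other cells (14.6-fold, 12.3 to 17.4). Coch, the secreted matrix protein cochlin, had 828 CPM in the positive cells and 59.6 CPM in the other cells (13.9-fold, 13.3 to 14.5). Tubb3, a beta-tubulin known from neurons, had 349.8 CPM in the positive cells and 34.1 CPM in the other cells (10.3-fold, 9.66 to 10.9). Wnt10a, a Wnt ligand whose loss disturbs tooth and root shape in mice, had 228 CPM in the positive cells and 26.04 CPM in the other cells (8.77-fold, 8.16 to 9.42), and was detected in 71.7% of positive and 14.5% of other cells. Among the positive cells Wnt10a stood at 236 CPM in cluster 17, 327 CPM in cluster 11, 193 CPM in cluster 9 and 117 CPM in the other clusters. Cells of clusters 17, 11 and 9 that were not positive had Wnt10a at 238, 235 and 101 CPM. Within these clusters the ratios of positive over other cells were 0.990, 1.39 and 1.91 for Wnt10a and 1.31, 1.67 and 1.92 for Tubb3. For Crtac1 they were 1.69, 1.31 and 6.99 (1.74 to 40.1), and for Coch 3.36, 3.31 and 2.24. High Wnt10a and Tubb3 were thus largely shared by whole clusters.

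The 15 genes with the highest ratios at that floor also included Sema3e (9.41-fold) and Sema6a (8.67-fold), both semaphorins that guide axons and vessels, and Fras1 (8.37-fold), an extracellular matrix protein of the epithelial basement membrane zone. Tspan13 (10.1-fold) is a tetraspanin, Dcbld1 (8.37-fold) a membrane protein, Cpne5 (8.14-fold) a calcium-dependent membrane-binding copine, Dlk1 (7.84-fold) an imprinted Notch-related ligand, and Nkd1 (6.74-fold) a Wnt inhibitor. All 15 were at least 2-fold higher in the positive cells of cluster 11 and in those outside the 3 main clusters, 14 in those of cluster 17 and 13 in those of cluster 9, where the other two were at least 2-fold lower. The one that did not reach this level in cluster 17 was Slpi, a protease inhibitor of secretions, at 2.33 CPM there against 23.4 CPM in the other cells. Slpi was 6.90-fold (6.35 to 7.49) higher over all positive cells, with 161 CPM in the positive cells and 23.4 CPM in the other cells, but a single cell held 63.1% of its UMIs and 38 cells held any. Dlk1 also rested on few cells, with 59.8% of its UMIs in 5 cells. In Coch, Wnt10a, Tubb3, Nkd1 and Col26a1 the top cell held 4.87%, 2.005%, 2.72%, 2.87% and 5.69% of the UMIs.

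The genes furthest below in the positive cells included known markers of ligament, cartilage and blood cells. Postn, a matricellular protein of the periodontal ligament, had 601 CPM in the positive cells and 6023 CPM in the other cells, 10.0-fold (9.69 to 10.4) higher there. Mmp13, the collagenase of bone and cartilage remodelling, had 96.5 CPM in the positive cells and 1199 CPM in the other cells (12.4-fold higher there, 11.4 to 13.6), and 1 positive cell held 43.5% of its UMIs. Col2a1, a fibrillar collagen of cartilage, had 14.8 CPM in the positive cells and 485 CPM in the other cells (32.7-fold, 26.3 to 41.2). In this library it was a leading gene of the osteoblast or cementoblast-like clusters 2 and 6, and no cluster was named chondrocyte-like. Col13a1, a transmembrane collagen, had 10.1 CPM in the positive cells and 211 CPM in the other cells. Slc36a2, an amino acid transporter, had 2.38 CPM in the positive cells and 80.4 CPM in the other cells. Neutrophil genes were also among the 15 lowest. Elane, a granule protease, rested on 3 UMIs in the positive cells, with 0.549 CPM in the positive cells and 57.2 CPM in the other cells, 104-fold (35.6 to 505) higher there. The protease Prtn3 had 2.20 CPM in the positive cells and 58.0 CPM in the other cells. The calcium-binding S100a8 had 8.79 CPM in the positive cells and 91.9 CPM in the other cells. The 15 also held Cp, Entpd3, Rbp4, Ccdc3, Trf and Mgll, 11.4-fold to 15.8-fold higher in the other cells. All 15 were at least 2-fold lower in each of clusters 17, 11 and 9.

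The higher and lower genes were then read in each cluster of the positive cells. Of the 228 higher genes, 78 (34.2%) passed 2-fold in the positive cells of each of clusters 17, 11 and 9 taken alone, and 37 in a single cluster. Of the 309 lower genes, 225 (72.8%) did so in each of the 3. The comparison group holds other lineages, and their markers moved with the lower genes. The 5 erythroid markers summed to 72.3 CPM in the positive cells and 4906 CPM in the other cells, with 1 at 0 in the positive cells. None of the 6 neutrophil and 8 macrophage markers was at 0. The neutrophil markers summed to 36.6 CPM in the positive cells and 246 CPM in the other cells, and the macrophage markers to 27.7 CPM in the positive cells and 132 CPM in the other cells. The 8 mural markers summed to 192 CPM in the positive cells and 466 CPM in the other cells, and the 6 endothelial ones to 6.78 CPM in the positive cells and 8.06 CPM in the other cells. Taken alone, these sums do not separate fewer cells of a type from less RNA per cell. By cluster, 0 positive cells lay in the erythroid-like cluster 22, the neutrophil-like cluster 20 and the mural-like cluster 21. With the erythroid-, neutrophil-, mural-, Schwann- and epithelial-like clusters left out, 4267 other cells remained, and 231 genes were higher and 310 lower in the positive cells. No cluster was named macrophage-like or endothelial-like. Postn, Col2a1 and Mmp13 then had log2 ratios of -3.37, -4.99 and -3.67. The neutrophil genes went with the clusters left out. Elane had a log2 ratio of -0.54 without those clusters and -5.23 with them. Prtn3 had -0.62 without and -4.21 with them, and S100a8 -0.49 without and -3.25 with them.

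**Figure D3:**
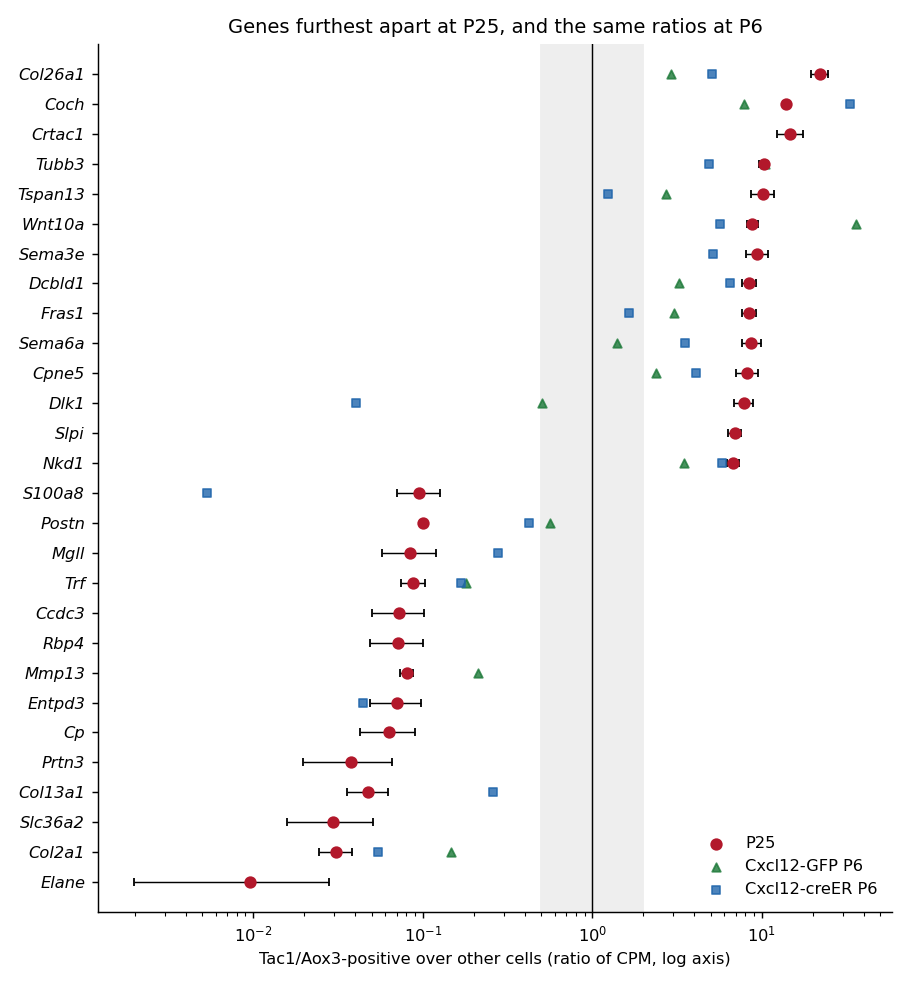
Ratio of CPM, positive over other cells, on a log axis for 14 of the 15 genes furthest above and 14 of the 15 furthest below at P25 (red circles, with 95% intervals), with the same ratio in Cxcl12-GFP P6 (green triangles) and Cxcl12-creER P6 (blue squares) where a P6 gene reached 20 CPM and had UMIs in both groups. The grey band spans less than 2-fold; Dlk1 lies right of it at P25 and left of it in Cxcl12-creER P6.

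Of the pathway lists, Wnt feedback genes had the highest median. Of the 8 of 12 list members with at least 10 CPM in either group, 7 were at least 2-fold higher in the positive cells and 0 lower, with a median log2 ratio of 2.23. Over all 8612 genes at that floor, 319 (3.7%) were higher, 444 (5.16%) were lower, and the median was 0.11. Tcf7, a transcription factor that partners beta-catenin, had 154 CPM in the positive cells and 29.1 CPM in the other cells (5.28-fold, 4.87 to 5.72). Lef1, a factor of the same family, had 49.99 CPM in the positive cells and 9.68 CPM in the other cells (5.16-fold, 4.48 to 5.95). The scaffold gene Axin2, which limits beta-catenin, had 44.7 CPM in the positive cells and 8.85 CPM in the other cells (5.05-fold, 4.34 to 5.86). All 3 of these ratios lay above 5. Nkd1, an inhibitor of the Dishevelled protein, had 153 CPM in the positive cells and 22.7 CPM in the other cells (6.74-fold, 6.20 to 7.33). Its paralogue Nkd2 had 95.2 CPM in the positive cells and 17.9 CPM in the other cells (5.33-fold, 4.80 to 5.90). Nkd1 reached 320 CPM in cluster 17, 101 CPM in cluster 11 and 84.3 CPM in cluster 9. Lgr6, an R-spondin receptor, was 2.52-fold and Znrf3, a ligase that removes Wnt receptors, 2.02-fold higher, while the receptor Lgr4 was 13.4 CPM in the positive cells and 21.8 CPM in the other cells.

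Ligands and secreted inhibitors did not move as a group. Among 9 measured Wnt ligands and R-spondins, 4 were higher and 1 lower (3.7% and 5.16% over all genes at the 10 CPM floor). Wnt6 had 106 CPM in the positive cells and 17.6 CPM in the other cells (6.06-fold, 5.48 to 6.69). Rspo2, which strengthens Wnt signals, had 29.9 CPM in the positive cells and 4.73 CPM in the other cells (6.31-fold, 5.21 to 7.62). Wnt7b was 2.54-fold higher, while Wnt4 had 4.03 CPM in the positive cells and 12.0 CPM in the other cells. Among 9 secreted antagonists, 4 were higher and 4 lower. Notum, which removes the lipid from Wnt ligands, was 3.32-fold, Frzb 2.37-fold, Sostdc1 2.35-fold and Wif1 2.01-fold higher in the positive cells. Wif1, which binds Wnt ligands, was found in 274 of the 286 cells and stood at 7326 CPM in the positive cells of cluster 17, against 1751 CPM in the other cells. The cells of cluster 17 that were not positive stood at 6862 CPM, so Wif1 was high in the whole cluster (ratio 1.07, 1.02 to 1.11). The same ratio was 1.82 in cluster 11 and 1.68 in cluster 9. Furthest below were Dkk1, with 3.11 CPM in the positive cells and 29.5 CPM in the other cells, and Sfrp2, with 85.5 CPM in the positive cells and 641 CPM in the other cells. Sfrp4 and Dkk3 were 2.66-fold and 2.06-fold higher in the other cells.

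Because members of the Wnt feedback list were high together, their promoter windows were read for the core of the site bound by TCF/LEF factors, the letters CTTTGA or their complement TCAAAG on the printed strand. The windows run from 250 bases before to 50 bases after each RefSeq start on GRCm38.p6. Of 32851 windows in the mouse table, 16.0% held the core, and 18.2% of 27025 genes held it in any window. Of the 8 measured feedback genes, 7 had 11 windows there, and 1 gene, Lef1, held the core, at 2 places in a single window. The window of Cxcl12, which was low in the same cells, held it at 1 place. The Lef1 window is chr3:131156044-131156343 and the Cxcl12 window chr6:117168285-117168584, both on the plus strand. Capitals mark the core; a match is a description of the letters and no evidence of binding.
Lef1: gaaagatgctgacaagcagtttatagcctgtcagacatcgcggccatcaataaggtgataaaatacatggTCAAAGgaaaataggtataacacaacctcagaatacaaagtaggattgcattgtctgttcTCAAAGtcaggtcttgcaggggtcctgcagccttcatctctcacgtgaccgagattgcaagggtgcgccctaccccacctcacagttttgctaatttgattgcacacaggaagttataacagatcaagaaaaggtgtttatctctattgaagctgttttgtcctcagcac
Cxcl12: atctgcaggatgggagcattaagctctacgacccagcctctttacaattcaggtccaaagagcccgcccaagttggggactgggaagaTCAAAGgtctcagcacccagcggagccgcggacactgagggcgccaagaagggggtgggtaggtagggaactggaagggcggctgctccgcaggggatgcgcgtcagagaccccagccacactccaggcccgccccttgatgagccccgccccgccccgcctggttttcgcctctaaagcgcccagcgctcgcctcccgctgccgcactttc

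The BMP and FGF lists had medians near 0, with single genes far from it. Among 18 BMP genes, 3 were higher and 4 lower (3.7% and 5.16% over all genes at the 10 CPM floor). The ligand Bmp4 had 144 CPM in the positive cells and 30.7 CPM in the other cells (4.68-fold, 4.31 to 5.08), and the ligand Bmp7 had 115 CPM in the positive cells and 25.8 CPM in the other cells (4.47-fold, 4.08 to 4.89). Bambi, a decoy receptor that dampens BMP and TGF-beta signals, had 1197 CPM in the positive cells and 314.5 CPM in the other cells (3.81-fold, 3.70 to 3.91), and was detected in 90.9% of the positive cells and 66.8% of the other cells. The antagonist Nog was 4.99-fold, the matricellular Smoc2 3.86-fold, the ligand Bmp5 3.84-fold and the activin binder Fst 2.69-fold higher in the other cells. Among 9 FGF genes, the feedback inhibitor Spry2 was 3.41-fold higher, with 53.7 CPM in the positive cells and 15.7 CPM in the other cells, and the receptor Fgfr3 and the ligand Fgf7 were 5.93-fold and 4.97-fold higher in the other cells. Among 13 TGF-beta genes 0 were higher and 1 lower, and among 7 hedgehog genes 0 were higher and 1, Gas1, a co-receptor, lower. With so few genes, counts of 0 or 1 cannot be set apart from the shares over all genes. Among 7 Notch genes 0 were higher and 2 lower, the receptor Notch3, with 4.21 CPM in the positive cells and 23.3 CPM in the other cells, and the target Heyl, with 1.65 CPM in the positive cells and 14.0 CPM in the other cells.

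Of 27 measured transcription factors of dental mesenchyme, 3 were higher and 1 lower, with a median log2 ratio of 0.50. The shares over all genes at the 10 CPM floor were 3.7% and 5.16%, and the median was 0.11. Sp6 had 53.3 CPM in the positive cells and 12.1 CPM in the other cells (4.40-fold, 3.84 to 5.03). Tbx3 had 68.9 CPM in the positive cells and 24.8 CPM in the other cells (2.78-fold), and Osr2 had 184 CPM in the positive cells and 81.6 CPM in the other cells (2.25-fold). All 3 are factors of tooth development. Msx1, a homeobox factor of the early tooth bud, had 84.1 CPM in the positive cells and 170.0 CPM in the other cells. Osr2 was highest in cluster 9, at 428 CPM, and Tbx3 in cluster 17, at 114 CPM. In the retinoic acid list, Stra6, the cellular retinol transporter, had 22.7 CPM in the positive cells and 1.64 CPM in the other cells (13.9-fold, 10.7 to 18.0). The retinoic acid binder Crabp1 had 563 CPM in the positive cells and 202 CPM in the other cells (2.78-fold), and the positive cells of cluster 9 stood at 1693 CPM. The enzyme Aldh1a2, which makes retinoic acid, was low in both, at 3.30 CPM in the positive cells and 10.5 CPM in the other cells. Pthlh, the parathyroid hormone-related peptide of the dental follicle, had 295 CPM in the positive cells and 65.5 CPM in the other cells (4.51-fold, 4.26 to 4.77), with 506 CPM in cluster 17.

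Niche factors were mostly lower. Of 13 measured niche factors and chemokines, 1 was higher and 7 lower, with a median log2 ratio of -1.39. The shares over all genes at the 10 CPM floor were 3.7% higher and 5.16% lower, with a median of 0.11. The higher gene was Tnfrsf11b, which encodes osteoprotegerin, the decoy that blocks the osteoclast cytokine RANKL, with 248.5 CPM in the positive cells and 42.8 CPM in the other cells (5.81-fold, 5.44 to 6.19). Its partner Tnfsf11, which encodes RANKL, had 2.01 CPM in the positive cells and 26.3 CPM in the other cells, 13.0-fold (7.27 to 26.2) higher there. Csf1, the other osteoclast cytokine of the list, had 12.8 CPM in the positive cells and 48.6 CPM in the other cells. The chemokines Ccl2, Ccl7 and Cxcl10 were 11.3-fold, 4.47-fold and 2.73-fold higher in the other cells and the adhesion molecule Vcam1 8.94-fold. Of 10 interferon response genes 0 were higher and 5 lower.

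Matrix lists had more genes lower than higher in the positive cells, as did all genes at the 10 CPM floor (3.7% higher, 5.16% lower). Of 12 fibrillar and ligament collagens 0 were higher and 5 lower, and of 13 basement membrane and other collagens 7 were lower and 1 higher, which was Col26a1 itself. Col3a1 had 3531 CPM in the positive cells and 14665 CPM in the other cells (4.15-fold higher there), and Col5a3 had 13.7 CPM in the positive cells and 55.8 CPM in the other cells. Aspn, a small proteoglycan of the ligament, had 239 CPM in the positive cells and 2148 CPM in the other cells (8.99-fold higher there), and Tnn, a tenascin, had 172 CPM in the positive cells and 733 CPM in the other cells. Of 24 proteoglycans and matricellular genes 3 were higher and 10 lower. The link protein Hapln1 was 5.04-fold, the large proteoglycan Vcan 2.72-fold and Omd, a small proteoglycan of mineralised matrix, 2.48-fold higher in the positive cells. Of 17 proteases and inhibitors 1, Mmp16, was higher and 9 were lower, among them Htra1 and Mmp9, each 7.97-fold higher in the other cells. Of 19 guidance cues 3 were higher and 8 lower, with Sema3a 3.36-fold higher and Sema3c 6.06-fold, Efnb2 3.97-fold and Slit2 3.69-fold lower in the positive cells.

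Mineral genes divided by role and by cluster. Of 17 measured, 3 were higher and 7 lower (3.7% and 5.16% over all genes at the 10 CPM floor). Bglap, which encodes the bone matrix protein osteocalcin, had 3145 CPM in the positive cells and 16971 CPM in the other cells (5.40-fold higher there, 5.32 to 5.48), and Spp1, osteopontin, had 1685 CPM in the positive cells and 7245 CPM in the other cells. Mepe, a matrix protein of osteocytes, had 0 UMIs in the positive cells and 14.3 CPM in the other cells. Smpd3, a sphingomyelinase needed for normal dentin and bone mineral, had 586 CPM in the positive cells and 127 CPM in the other cells (4.598-fold, 4.42 to 4.79). Dspp, the dentin sialophosphoprotein of odontoblasts, had 107 CPM in the positive cells and 33.6 CPM in the other cells (3.17-fold), but 5 cells held 95.4% of its UMIs and 26 cells held any. Its level in the positive cells was 324 CPM in cluster 11, 4.67 CPM in cluster 17 and 3.41 CPM in cluster 9. Dmp1 had 279 CPM in the positive cells and 271 CPM in the other cells (1.03-fold, 0.977 to 1.09), yet stood at 755 CPM in the positive cells of cluster 11 and 6.998 CPM in those of cluster 17. Nes, an intermediate filament of odontoblasts, was 3.15-fold higher, with 196 CPM in the positive cells of cluster 11 and 15.6 CPM in those of cluster 17. Smpd3 was above the other cells in both clusters, at 1165 CPM in cluster 11 and 550 CPM in cluster 17.

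Ambn, which encodes the enamel matrix protein ameloblastin, was high although the rule leaves out cells with Epcam. It had 302 CPM in the positive cells and 56.3 CPM in the other cells (5.37-fold, 5.07 to 5.69), with 824 CPM in cluster 9. The 7 epithelial markers, which include Ambn, summed to 312 CPM in the positive cells and 144 CPM in the other cells, with 1 of the 7 higher, 1 at 0 and every positive cell lacking an Epcam UMI by the rule. Cell cycle genes were neither 2-fold higher nor 2-fold lower in any of 19, with a median log2 ratio of 0.42, and Top2a stood at 65.7 CPM in the positive cells and 40.9 CPM in the other cells. Of 3 measured neuropeptide genes other than Tac1, 0 passed 2-fold. On the list named for the insulin-like growth factor axis, 2 of 15 measured genes were higher, the imprinted Dlk1 and Peg3. Neither encodes an insulin-like growth factor or a receptor or binding protein of one. Another 5 were lower, among them the binding protein Igfbp5 with 431 CPM in the positive cells and 1287 CPM in the other cells. Over all genes at the 10 CPM floor, 3.7% were higher and 5.16% lower.

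**Figure D4:**
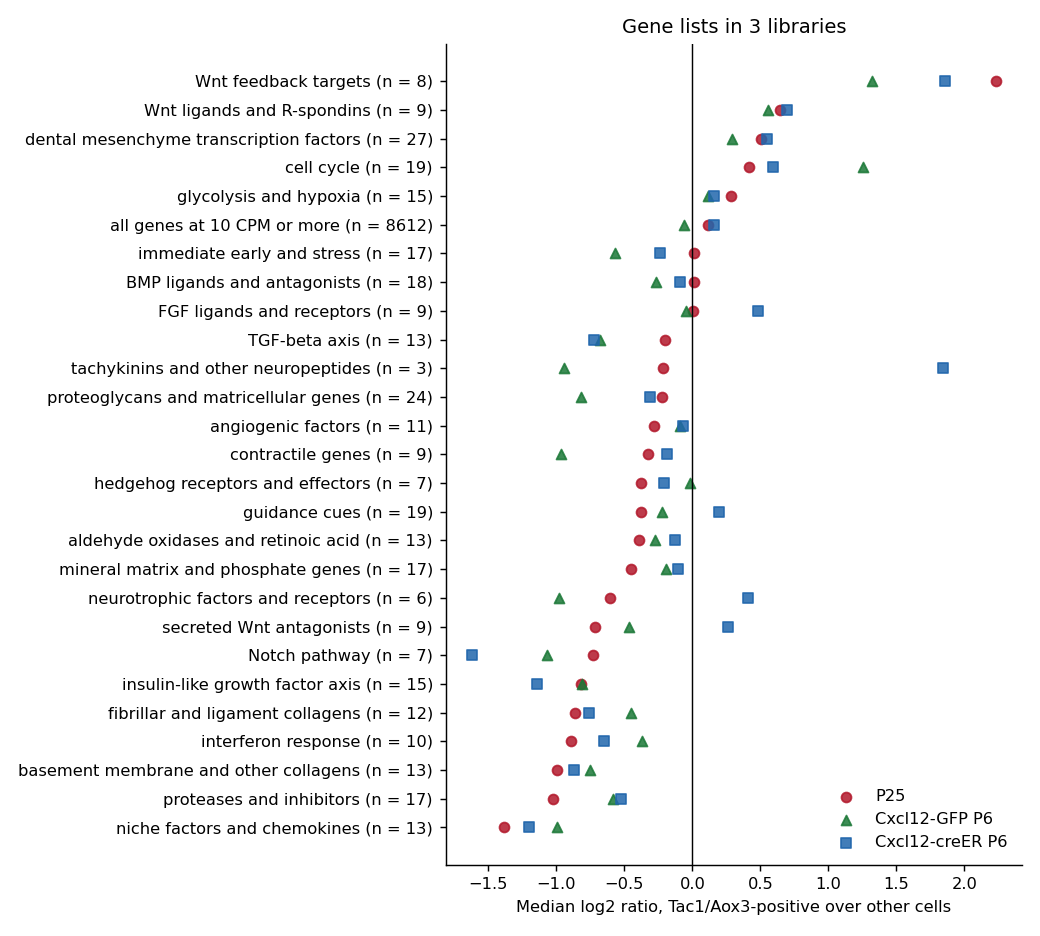
Median log2 ratio of each pathway list, positive over other cells, at P25 (red circles), in Cxcl12-GFP P6 (green triangles) and in Cxcl12-creER P6 (blue squares), with the number of genes measured at P25. Among these pathway lists Wnt feedback targets have the highest median at P25, 2.23, and niche factors the lowest, -1.39; cell cycle genes reach 1.25 in Cxcl12-GFP P6.

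Setting positive against negative cells of the same cluster shows what goes with the pair once the neighbourhood is shared. In cluster 17, 80 positive cells were set against 32 with fewer than 3 UMIs of the pair, and 414 of 4993 genes (8.29%) were higher and 84 (1.68%) lower. These counts are uneven in part because the floor of 20 UMIs is harder to reach in the smaller negative group. Genes of low level were therefore less easily counted as lower. With the 10 CPM floor used for the lists, the shares were 10.1% higher and 5.28% lower. GFP had 97.2 CPM in the positive cells and 795 CPM in the negative cells, 8.18-fold (6.64 to 10.1) higher there. The mineral gene Bglap had 279 CPM in the positive cells and 1109 CPM in the negative cells, and Ibsp, the bone sialoprotein, had 1024 CPM in the positive cells and 3674 CPM in the negative cells. Postn and the thrombospondin Thbs4 were 3.63-fold and 4.29-fold higher in the negative cells. Col26a1 had 343 CPM in the positive cells and 140 CPM in the negative cells (2.45-fold, 1.86 to 3.29). The genes highest in the positive cells, Wfdc18, Chodl and Gem, rested on 2, 3 and 4 UMIs in the negative cells, with ratios of 10.6 (2.83 to 89.4), 9.71 (3.22 to 48.0) and 7.29 (2.75 to 27.3). Of 13 measured cell cycle genes 10 were higher and 0 lower (10.1% and 5.28% over all 8565 genes at the 10 CPM floor). Wnt feedback genes did not pass 2-fold between positive and negative cells here. Among 9 measured, 0 were higher and 0 lower, with a median log2 ratio of 0.32 against 0.06 over all genes at that floor.

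In cluster 11, 75 positive cells were set against 102 negative ones, and 118 of 5443 genes (2.17%) were higher and 38 (0.698%) lower. Of 7 measured odontoblast markers, 0 were at least 2-fold higher and 2 at least 2-fold lower in the positive cells, Dspp and Bglap. Dmp1, a mineral-binding matrix phosphoprotein, had 755 CPM in the positive cells and 1106 CPM in the negative cells (1.47-fold higher there, 1.37 to 1.57), while Smpd3 had 1165 CPM in the positive cells and 923 CPM in the negative cells (1.26-fold, 1.18 to 1.34). Dspp had 324 CPM in the positive cells and 923 CPM in the negative cells (2.85-fold higher there, 2.59 to 3.13). Its level in the positive cells rested on few cells: 564 of 582 UMIs lay in this cluster and 1 cell held 51.9% of the 582. Over all 286 positive cells, 5 cells held 95.4% of the UMIs of Dspp, 49.4% of Bglap and 52.9% of Spp1. Bglap had 8504 CPM in the positive cells and 22776 CPM in the negative cells (2.68-fold higher there). Spp1 had 2993 CPM in the positive cells and 8847 CPM in the negative cells (2.96-fold higher there), and Mmp20, a protease of enamel and dentin matrix, was 3.09-fold higher in the negative cells. Nes stood at 196 CPM in both the positive and the negative cells (interval of the ratio 0.862 to 1.16), and Ifitm5 had a ratio of 1.03 (0.964 to 1.09). Aspn had 102 CPM in the positive cells and 6.02 CPM in the negative cells (16.9-fold, 9.45 to 33.4). Pcp4, a calmodulin binder, had 85.7 CPM in the positive cells and 9.53 CPM in the negative cells (5.56 to 15.4 for the ratio), and Igf1 and the matrix gene Tnc were 7.19-fold and 4.98-fold higher. Col26a1 had 44.3 CPM in the positive cells and 11.03 CPM in the negative cells (4.02-fold, 2.47 to 6.77). Of 8 measured Wnt feedback genes 4 were higher and 0 lower, with a median log2 ratio of 0.75 against 0.13 over all genes at the 10 CPM floor, of which 3.63% were higher and 1.33% lower. Of 16 mineral genes 1 was higher and 6 were lower.

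In cluster 9, 60 positive cells were set against 149 negative ones, and 49 of 6300 genes (0.778%) were higher and 67 (1.06%) lower. The neuropeptide gene Nts had 103 CPM in the positive cells and 11.3 CPM in the negative cells (9.10-fold, 6.09 to 14.0). Sfrp2 had 93.7 CPM in the positive cells and 17.9 CPM in the negative cells (5.23-fold), and Smpd3 had 178 CPM in the positive cells and 45.3 CPM in the negative cells (3.93-fold). Pthlh was 3.25-fold higher, and the cell cycle entry gene Ccnd1 had 198 CPM in the positive cells and 66.1 CPM in the negative cells (2.99-fold, 2.45 to 3.65). Nr0b1, an orphan nuclear receptor, had 23.0 CPM in the positive cells and 93.6 CPM in the negative cells, and the scaffold Akap12 and the claudin Cldn10 were 3.92-fold and 3.31-fold higher in the negative cells. Of 7 Wnt feedback genes 3 were higher and 0 lower (1.73% and 2.17% over all 8603 genes at the 10 CPM floor). Most genes named in these 3 contrasts were chosen by their ratio in that cluster.

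The 79 positive cells with Tac1 and the 207 with Aox3 alone were not alike. Of 6302 genes 221 (3.51%) were higher and 116 (1.84%) lower in the cells with Tac1. Col26a1 had 299.9 CPM in the cells with Tac1 and 75.6 CPM in the cells with Aox3 alone (3.97-fold, 3.42 to 4.61), and Coch had 1455 CPM in the cells with Tac1 and 600 CPM in the cells with Aox3 alone (2.42-fold). Ibsp had 126 CPM in the cells with Tac1 and 3581 CPM in the cells with Aox3 alone, 28.4-fold (24.5 to 33.0) higher there. Spp1 had 194 CPM in the cells with Tac1 and 2224 CPM in the cells with Aox3 alone (11.5-fold higher there). Dspp had 27.6 CPM in the cells with Tac1 and 135 CPM in the cells with Aox3 alone. Over all positive cells, 5 cells held 28.7% of the UMIs of Ibsp, 52.9% of Spp1 and 95.4% of Dspp. Of 16 measured mineral genes, 0 were higher and 8 lower with Tac1, and of 19 cell cycle genes 15 were higher and 0 lower, with a median log2 ratio of 1.65 against 0.05 over all genes at the 10 CPM floor (4.72% higher, 2.53% lower). The cells with Tac1 fell unevenly over the clusters. They were 7 of the 10 positive cells of the cycling cluster 16 and 8 of the 8 of the ligament-like cluster 13, against 15 of the 75 of the odontoblast-like cluster 11 and 0 of the 12 of cluster 7. The part of this makeup in the cell cycle and mineral differences was not tested. Wnt10a was within 2-fold, with 258 CPM in the cells with Tac1 and 218 CPM in the cells with Aox3 alone, and 1 of 8 Wnt feedback genes was higher. Chodl, a membrane lectin, was 12.0-fold (8.42 to 17.4) and the synaptic adhesion gene Nrxn2 10.6-fold (6.70 to 17.4) higher with Tac1.

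A few extreme ratios of this split came from single cells. Mstn, the growth inhibitor myostatin, had 88 UMIs in the cells with Tac1, all in 1 cell, and 0 in the cells with Aox3 alone, at least 81.1-fold higher against a floor of 3 UMIs over the group. Rgs5, a marker of mural cells, had 0 UMIs in the cells with Tac1 and 222 in the cells with Aox3 alone, with 95.9% in 1 cell. Pmch, a neuropeptide gene that leads cluster 1, had 0 UMIs in the cells with Tac1 and 336 in the cells with Aox3 alone, with 54.8% in 1 cell. At least 5 tdTomato UMIs were held by 84.8% of the cells with Tac1 and 60.4% of those with Aox3 alone, and at least 5 GFP UMIs by 31.6% of the cells with Tac1 and 41.5% of those with Aox3 alone.

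At P6 the same rule was applied to cells of other genotypes and gates, and each library was compared within itself. In Cxcl12-GFP P6, 213 of 6676 genes (3.19%) were at least 2-fold higher in the positive cells and 310 (4.64%) lower, and in Cxcl12-creER P6, 359 of 5901 (6.08%) higher and 456 (7.73%) lower. The 34 positive cells of Cxcl12-creER P6 had a median of 18773.5 UMIs and the 1051 other cells 1418 UMIs, so depth differed sharply there, whereas in Cxcl12-GFP P6 the median was 7675.5 UMIs in the positive cells and 8309 UMIs in the other cells. Of the 228 genes higher at P25, 170 were tested in Cxcl12-GFP P6, where 55 were higher and 3 lower, 32.4% of those tested and 25.8% of that library's own 213. In Cxcl12-creER P6, 161 were tested, with 94 higher and 5 lower, 58.4% of those tested and 26.2% of that library's 359. Of the 309 genes lower at P25, 98 of 192 tested were lower in Cxcl12-GFP P6 (51.0%) and 120 of 200 in Cxcl12-creER P6 (60.0%).

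High in the positive cells of all 3 libraries were 44 genes. They included Col26a1, Coch, Tubb3, Wnt10a, Wnt6, Rspo2, Nkd1, Tcf7, Lef1, Axin2, Smpd3, Pthlh and Wif1. Col26a1 had 226 CPM in positive and 77.9 CPM in other cells of Cxcl12-GFP P6 (2.90-fold, 2.64 to 3.17), and 419 CPM in positive and 82.9 CPM in other cells of Cxcl12-creER P6 (5.05-fold, 4.31 to 5.92). The P25 ratio of 21.9 thus went with a lower level in the other cells, 6.16 CPM, and not with a higher one in the positive cells. Wnt10a had 111 CPM in positive and 3.09 CPM in other cells of Cxcl12-GFP P6 (36.1-fold, 29.8 to 43.7), and 122 CPM in positive and 21.6 CPM in other cells of Cxcl12-creER P6 (5.63-fold, 4.13 to 7.65). Coch had 76.1 CPM in positive and 9.74 CPM in other cells of Cxcl12-GFP P6 (7.82-fold), and 797 CPM in positive and 24.0 CPM in other cells of Cxcl12-creER P6 (33.2-fold). Kcnip4, a potassium channel-interacting protein, was 21.6-fold higher at P25, 16.0-fold in Cxcl12-GFP P6 and 12.6-fold in Cxcl12-creER P6. Ptn, the growth factor pleiotrophin, had 8249.7 CPM in positive and 2124 CPM in other cells at P25 (3.88-fold), and was 4.91-fold higher in Cxcl12-GFP P6 and 6.15-fold in Cxcl12-creER P6. Ccnd1 was 6.07-fold higher at P25, 3.17-fold in Cxcl12-GFP P6 and 4.23-fold in Cxcl12-creER P6.

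Of the Wnt feedback genes, 4 of 7 were higher and 1 lower in Cxcl12-GFP P6 (3.4% and 5.33% over all 9004 genes at the 10 CPM floor), and 7 of 9 higher and 1 lower in Cxcl12-creER P6 (8.74% and 8.32% of 9520). Their median log2 ratio was 1.32 in Cxcl12-GFP P6, while Cxcl12-creER P6 gave 1.86. Lef1 had 149 CPM in positive and 32.1 CPM in other cells of Cxcl12-GFP P6, and 237 CPM in positive and 36.4 CPM in other cells of Cxcl12-creER P6. Nkd2 departed from this in Cxcl12-GFP P6, where positive cells were at 0.78 of the other cells' level. Cell cycle genes differed between libraries: 18 of 20 were higher in the positive cells of Cxcl12-GFP P6, 2 of 20 in Cxcl12-creER P6 and 0 of 19 at P25. Niche factors were low in each, with 4 of 7 lower in Cxcl12-GFP P6 and 6 of 10 in Cxcl12-creER P6. Tnfrsf11b was 0.50 of the other cells' level in Cxcl12-GFP P6 and 2.05-fold higher in Cxcl12-creER P6, unlike the 5.81-fold at P25.

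Between positive cells of both ages, mineral genes were higher and cell cycle genes lower at P25. Against Cxcl12-GFP P6, 794 of 6925 genes (11.5%) were at least 2-fold higher and 1026 (14.8%) lower at P25, a split that TMM scaling turned to 1213 higher and 644 lower. Age, genotype, sort gate and library cannot be told apart here, and the other cells of both libraries lay on the same side for each of the 20 genes furthest apart. Of 16 measured mineral genes 14 were higher in the positive cells at P25 and 0 lower, with a median log2 ratio of 5.64, against 15 of 17 and 4.08 in the other cells (11.7% higher over all 9150 genes at the 10 CPM floor in the positive cells, 9.14% of 9226 in the other cells). Dmp1 had 1524 UMIs (279 CPM) in the P25 cells and 0 in the P6 cells, at least 216-fold higher against a floor of 3 UMIs over the group, and the other cells stood at 271 CPM at P25 and 0.663 CPM at P6. Bglap had 3145 CPM at P25 and 13.3 CPM at P6 (236-fold, 166 to 347), and Ibsp 2663 CPM at P25 and 25.8 CPM at P6 (103-fold, 80.1 to 135). Mgp, an inhibitor of calcification, rested on 2 UMIs at P6, with a ratio of 321 (88.6 to 2650.3), and Dspp on 1 UMI, with a ratio of 248 (44.3 to 9806). Smpd3, with 586 CPM at P25 and 139 CPM at P6, was already present in the P6 cells, where it was 21.1-fold above the other cells.

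All but 1 of 20 cell cycle genes were at least 2-fold lower in the positive cells at P25, with a median log2 ratio of -1.85, against 13 of 20 and -1.08 in the other cells (over all genes, 15.3% were lower in the positive cells and 18.5% in the other cells). Mcm2, a replication licensing helicase subunit, had 7.69 CPM at P25 and 72.7 CPM at P6, and Top2a had 65.7 CPM at P25 and 162 CPM at P6. Of 12 fibrillar and ligament collagens 7 were higher at P25 and 0 lower in the positive cells, and 9 of 12 were higher in the other cells. Among the genes furthest below at P25 were the imprinted transcript H19 with 7.51 CPM at P25 and 329 CPM at P6, and Lypd1 with 2.01 CPM at P25 and 115 CPM at P6. Smoc2 had 23.4 CPM at P25 and 748 CPM at P6, and the Wnt and BMP antagonist Sostdc1 had 47.8 CPM at P25 and 543 CPM at P6. The other cells were lower at P25 in each of these 4 as well, whereas Efemp1, a fibulin of the extracellular matrix, had 2.38 CPM at P25 and 65.4 CPM at P6 in the positive cells, and 5.85 CPM at P25 and 8.83 CPM at P6 in the other cells. Of 8 Wnt feedback genes 2 were higher and 1 lower at P25, the lower being Lef1 at 49.99 CPM at P25 and 149 CPM at P6. Of the pair that chose the cells, Tac1 had 123 CPM at P25 and 1065 CPM at P6 (8.66-fold higher at P6), and Aox3 had 256 CPM at P25 and 61.5 CPM at P6 (4.16-fold higher at P25). Cxcl12 had 73.2 CPM at P25 and 131 CPM at P6 in the positive cells, and 338 CPM at P25 and 262 CPM at P6 in the other cells.

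**Figure D5:**
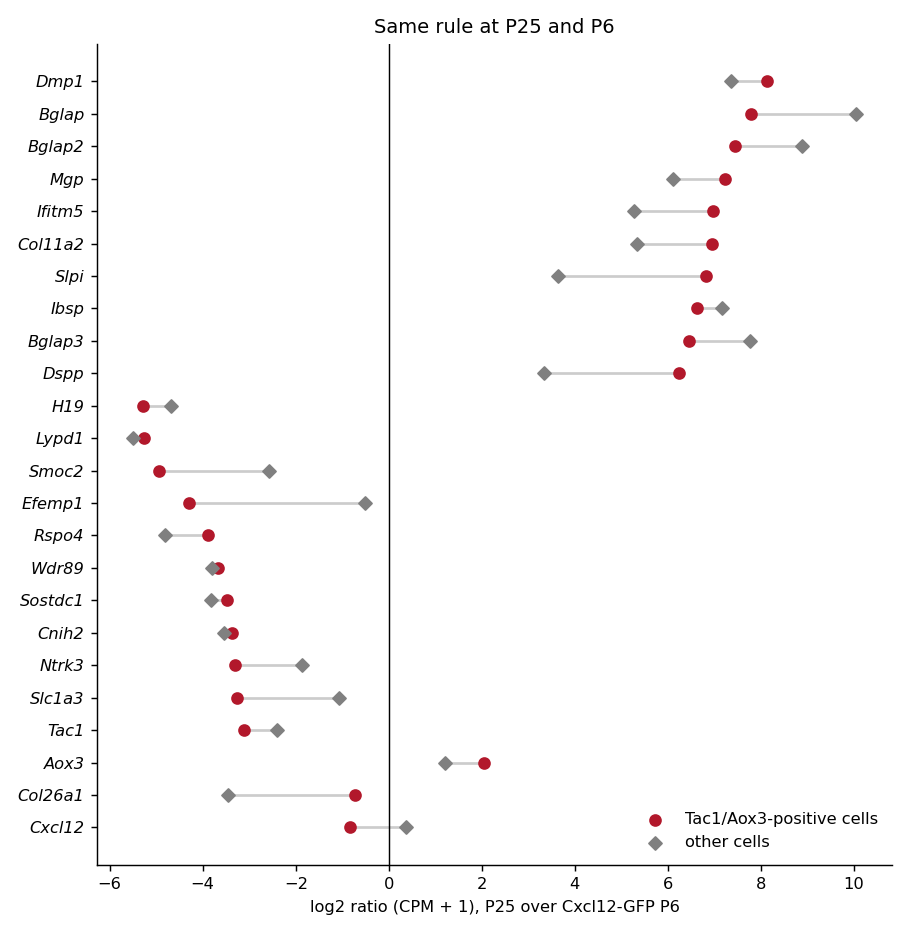
log2 ratio of P25 over Cxcl12-GFP P6 (CPM plus a pseudocount of 1) in Tac1/Aox3-positive cells (red circles) and in the other cells (grey diamonds) for the 10 genes furthest above, the 10 furthest below and the rule and marker genes. Both kinds of cells lie on the same side of 0 for the 20 genes furthest apart, whereas Cxcl12 lies left of 0 in positive cells and right of it in the other cells.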

How the data were processed

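The values are UMI counts that the authors deposited unnormalised, 1 matrix per library of 10x 3' version 3 chemistry, per the labels. Cell Ranger 3.1.0 made the P25 matrix and 6.0.0 that of Cxcl12-creER P6, per the file headers, and Seurat and mm10 are named in the submitters' processing notes. For Cxcl12-GFP P6 no Cell Ranger version is stated. At P25, 741 barcodes with under 500 genes and 295 with over 15% mitochondrial UMIs were left out. Clusters came from 2000 variable genes, 30 principal components, 15 neighbours and Leiden resolution 1 (Python 3.11.15, numpy 2.4.6, scipy 1.17.1, scanpy 1.11.5, leidenalg 0.10.2), and were named from marker lists by a rule set after the clusters were seen. Doublets stayed in; a score marked 256 cells, 8 of them positive, removed in an alternative. P25 shared 1 barcode with Cxcl12-GFP P6 and 5 with Cxcl12-creER P6, none in a positive cell. Counts were summed per group and set to CPM. Named were the 15 highest and 15 lowest log2 ratios at 50 CPM and 50 UMIs (pseudocount 1 CPM; 10 each against P6), up to 5 genes per list and the rule and reporter genes; haemoglobin, mitochondrial, ribosomal and sex-specific genes and predicted genes named Gm or Rik were left out. Genes named beyond this rule were chosen after their values were seen. The cells and gene lists were chosen with earlier results of these data known. The contrasts were tested on simulated data. Alternatives covered the threshold, filters, doublets, weighting, depth, scaling, floors and comparison cells. The values of 2 genes that the naming rule picked are not reported here.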

Additional observations from a re-analysis of the deposited data

Results flagged for a closer look

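A transcript of the tamoxifen-dependent Cre recombinase stood at 31.8 CPM in the positive cells of Cxcl12-GFP P6 and at 13.3 CPM in its other cells, although the labels of that library give no Cre. At P25, whose mice carry the transgene, it stood at 15.7 CPM in the positive cells and 2.50 CPM in the other cells. The tdTomato transcript was also present in Cxcl12-GFP P6, whose labels give no tdTomato allele. It stood at 26.7 CPM (62 UMIs) in the positive cells and 23.0 CPM (1424 UMIs) in the other cells. The cause was not tested for either transcript.

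Dlk1 ran in opposite directions. Its log2 ratio of positive over other cells was -4.53 in Cxcl12-creER P6, with 12.7 CPM in the positive cells and 315 CPM in the other cells, while at P25 it had 68.9 CPM in the positive cells and 8.78 CPM in the other cells. The difference was not tested, and 59.8% of the P25 UMIs lay in 5 cells.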

How the results depend on the processing

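No paired analysis was possible because each group had 1 library, and for the same reason no replicate was left out. Among the 30 genes furthest apart at P25, each direction held except that of Slpi. It turned to log2 ratios of -0.14 at a threshold of 5 UMIs, -0.015 without the positive cells of cluster 11 and -2.87 with only those of cluster 17. The last 2 settings were chosen after seeing the data. The genes higher and lower, 228 and 309, became 441 and 481 when 1 UMI of each gene was asked for, 1686 and 5290 without a floor, and 421 and 543 with cluster 17 alone. The share of 6.00% became 8.54% at 2 UMIs, 3.27% at 5, 1.45% with each gene and 4.68% with a threshold of 2 UMIs scaled to depth. Under the same 4 settings the Col26a1 ratio of 21.9 became 18.5, 28.1, 33.9 and 28.2, and it was 19.4 with cells weighted equally, 28.7 without other cells of 1 or 2 UMIs, 28.8 without cluster 11 and 55.6 with cluster 17 alone. The Cxcl12 ratio of 0.216 became 0.275 at 2 UMIs, 0.159 at 5, 0.156 with cells weighted equally, 0.281 at matched depth, 0.301 without cluster 11 and 0.108 with cluster 17 alone. The tdTomato share of 67.1% became 79.7% with each gene, 82.5% with cluster 17 alone, 81.1% at 1 UMI and 50.7% thinned. The GFP share of 38.8% became 31.8% with the scaled threshold, 29.4% without cluster 11, 6.25% with cluster 17 alone and 51.7% at 1 UMI. Against P6, the 794 higher and 1026 lower genes became 1213 and 644 with TMM and 3462 and 3496 without a floor. Of the other values, 242 of 420 log2 ratios of the 30 genes and 336 of 378 list medians stayed within their limits, and the Wnt feedback median ran from 1.92 to 2.70. The antagonist median, -0.72, changed sign to 0.37 with cluster 17 alone. The cause of these shifts was not tested.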
